A study of Mus musculus with 3 samples.

Results

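The 35 genes described here form 2 lists of lipid synthesis genes, 21 for cholesterol synthesis and its control and 14 for the synthesis of fatty acids and triglycerides. They were chosen by name, with earlier results of these data known, out of 23860 genes counted in either of 2 libraries of mouse liver cells. All 35 were present in both tables, which hold 21550 and 22517 genes. They were read first in hepatocytes, then in immune cells, and the cholesterol list was set beside the fatty acid list as a check on the diet.

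Liver cells were captured with the BD Rhapsody system, in which each mRNA molecule is tagged with a unique molecular identifier (UMI), and 2 whole-transcriptome libraries were analysed. The HFHC pool holds cells of C57BL/6J wild-type (WT) and Chi3l1-/- mice (written Chil1-/- in the labels) that received the high-fat, high-cholesterol (HFHC) diet over 16 weeks. It gives no genotype for each cell, and the deletion in Chi3l1-/- mice is present in every cell type. The other library is called the WT library. The study describes cells of C57BL/6J WT mice on normal chow (NCD), but does not say which library holds them. The counts used here are labelled WT and their file header reads APAP0h. They were matched by elimination to the sample titled MCD, the name of a methionine-choline deficient diet. The diet of the WT library is therefore not settled by the labels. The labels speak of parenchymal cells, whereas the methods describe non-parenchymal cells. With 1 library per condition, diet, genotype mixture, capture and library cannot be told apart, no test was possible, and the number of mice behind each library was not given in the sources used here.

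Cholesterol is built from acetyl-CoA through mevalonate, isoprenoids and squalene to lanosterol, and then by a chain of sterol steps. Most enzymes of this chain are under the transcription factor SREBP2 (gene Srebf2), which leaves the endoplasmic reticulum with its escort SCAP when sterols are scarce and is held back by INSIG proteins when sterols are plentiful. Fatty acid synthesis from citrate is mainly under SREBP1c (gene Srebf1), which responds to insulin and to the oxysterol receptor LXR. Hepatocytes are the main site of both pathways in the liver, and feeding cholesterol is a classical way to lower the first one.

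After filtering, 23346 cells with 49509045 UMIs remained in the WT library and 19625 cells with 52044785 UMIs in the HFHC pool, with medians of 1322.5 and 1622 UMIs per cell. The libraries shared 756 cell barcodes, 507 of them among kept cells of both, and no shared barcode had the same counts in both. The targeted gene, listed as Chil1, had 2443 UMIs in 1343 cells of the WT library and 232 UMIs in 76 cells of the HFHC pool. In neutrophil-like cells, which numbered 2595 and 333, it had 1823 and 131 UMIs, or 585.5 and 164.8 CPM. Its level was thus lower in the mixed pool also within these cells, and with no genotype for each cell it does not check the labels of single cells.

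Hepatocytes were cells with no UMI of Ptprc (CD45) in which Alb, Apoa1, Apoa2, Ttr and Fabp1 together made up at least 5% of the UMIs. This gate took 569 cells of the WT library (548863 UMIs) and 507 cells of the HFHC pool (571778 UMIs). It cut through one population, since 713 and 777 further cells lay between 4 and 5%, and only 336 and 271 between 5 and 6%. A wider gate of 1%, set after the data were seen, took 6613 cells (4960717 UMIs) and 11227 cells (15966105 UMIs), and both are reported. Levels are UMIs summed over cells and given as CPM, counts per 1000000 UMIs of the same cells. Differences are log2 ratios of CPM, HFHC pool over WT library, with 1 UMI added, and are read for genes with 100 or more UMIs over the 2 libraries. The intervals are exact 95% intervals that cover counting error only, not the spread between mice.

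The cells taken as hepatocytes held hepatocyte genes, but the libraries differed in the levels of markers of lobule position and of other cell types. In the 5% gate Cyp2e1, an enzyme of hepatocytes near the central vein, stood at 133 CPM in the WT library and 1623 CPM in the HFHC pool, and Cyp2f2, which marks hepatocytes near the portal vein, at 1479 and 599.9 CPM. In the 1% gate they stood at 691 and 1437 CPM, and at 622 and 229 CPM. Of 46 markers of other cell types, 36 and 31 had any UMI in the 5% gate, with summed levels of 444.6 and 442.5 CPM. Those at 0 in both libraries were Cx3cr1, Ly6g, Xcr1, Cd209a, Pax5 and Klre1. In the 1% gate all 46 had UMIs, and their summed levels were 1138 and 728 CPM, with neutrophil markers at 204.8 and 11.65 CPM, Kupffer cell markers at 306 and 117 CPM and endothelial markers, the one type higher in the HFHC pool, at 363 and 449 CPM. In the 5% gate neutrophil markers stood at 63.8 and 10.5 CPM and endothelial markers at 107.5 and 142 CPM. Monocyte/MoMF markers stood there at 27.3 and 50.7 CPM, NK cell markers at 9.11 and 22.7 CPM and Kupffer cell markers at 123.9 and 110.2 CPM. The median mitochondrial share of a cell was 3.91% in the WT library and 0.556% in the HFHC pool in the 5% gate, and 1.31 and 0.373% in the 1% gate, and the filter on it removed 2638 and 320 cells of the libraries. The part of these differences in the results was not tested as a whole, and values split by lobule position, and without cells that carried other markers, are given below.

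Cholesterol synthesis genes were lower in hepatocytes of the HFHC pool than in those of the WT library. In the 5% gate 6 of the 21 genes reached 100 UMIs, and all 6 were lower, with a median log2 ratio of -0.76 against 0.12 over all 1670 genes read. Of all genes read, 40.2% were lower by any amount and 4.85% were at least 2-fold lower. Only Idi1 passed 2-fold. UMIs of all 21 genes summed to 2028 CPM in the WT library and 1090 CPM in the HFHC pool.

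Idi1 encodes the isomerase that makes dimethylallyl diphosphate, the starter of isoprenoid chains, and lies at chr13:8885501-8892451 (GRCm38). It had 177 UMIs (322 CPM) in the 5% gate of the WT library and 57 UMIs (99.7 CPM) in that of the HFHC pool, a log2 ratio of -1.68 (-2.15 to -1.26). Sc5d, a desaturase of the last sterol steps, stood at 333 and 168 CPM (-0.98). Hmgcs1, which makes HMG-CoA at the head of the pathway, stood at 211 and 115 CPM (-0.86). Ebp, a sterol isomerase, stood at 208 and 131 CPM (-0.66). The remaining 2 genes do not encode enzymes of the chain and differed least. Stard4, a carrier that moves cholesterol inside the cell, stood at 191 and 135 CPM (-0.50), and Insig1, the sterol-regulated brake on SREBP processing, at 202 and 147 CPM (-0.46). All 6 intervals lay below 0. The other 15 genes had 3 to 79 UMIs over both libraries and were not read by themselves in this gate. In cells with fewer than 2 UMIs of other cell types' markers the median of the 6 genes was -0.78.

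With the wider gate 20 of the 21 genes reached 100 UMIs, and 19 of them were lower in the HFHC pool, where 43.9% of the 9366 genes read were. Their median was -1.27 against 0.08 over all genes, and 12 were at least 2-fold lower, against 6.40% of all genes. The interval lay below 0 for these 19 genes and above 0 for Fdft1, with no such count over all genes. Intervals are narrow in this gate because of its many UMIs. UMIs of the 21 genes summed to 2035 and 992 CPM, close to the sums of the 5% gate in each library.

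Along the pathway, the genes of the mevalonate part were lower by varied amounts. Hmgcs1 stood at 316 CPM in the WT library and 155 CPM in the HFHC pool (-1.03, -1.12 to -0.94). Mvk, Pmvk and Mvd encode the kinases and the decarboxylase that turn mevalonate into isopentenyl diphosphate. Mvk stood at 14.5 and 4.82 CPM (-1.59), Mvd at 11.9 and 4.45 CPM (-1.42), and Pmvk at 47.0 and 29.4 CPM (-0.68). Idi1 followed with 391 and 95.01 CPM (-2.04, -2.14 to -1.94), from 1938 and 1517 UMIs. Acat2, which joins 2 acetyl-CoA molecules before HMG-CoA, differed little, at 95.1 and 83.2 CPM (-0.19). Its near-identical neighbour Acat3 stood at 349 and 468 CPM, and reads of the pair can be split in counting, so the value of Acat2 is uncertain. Fdps, which makes farnesyl diphosphate, had 17 and 32 UMIs and was not read, and it has near-identical copies in the genome.

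Squalene is where the pathway commits to sterols, and the 3 genes of that step differed in direction. Fdft1, squalene synthase, was the one cholesterol gene higher in the HFHC pool, at 43.1 and 63.9 CPM (0.56, 0.35 to 0.79). Sqle, squalene epoxidase, which is known as a rate-limiting enzyme of the pathway, had the lowest ratio of all 35 genes. It had 84 UMIs (16.9 CPM) in the WT library and 19 UMIs (1.19 CPM) in the larger sum of the HFHC pool, a log2 ratio of -3.77 (-4.63 to -3.10), and it lies at chr15:59315077-59331192. Lss, which closes squalene epoxide to lanosterol, stood at 26.0 and 19.7 CPM (-0.40).

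The genes after lanosterol held the largest differences beside Sqle. Cyp51, the lanosterol demethylase, stood at 41.5 and 6.20 CPM (-2.74, -3.10 to -2.39). Tm7sf2, a sterol reductase at chr19:6062821-6068373, stood at 74.6 and 10.7 CPM (-2.80, -3.07 to -2.53). Msmo1, Nsdhl and Hsd17b7 act in turn to remove the methyl groups of the sterol ring. They stood at 28.6 and 5.89 CPM (-2.28), 56.2 and 15.6 CPM (-1.85), and 54.6 and 25.1 CPM (-1.12). Ebp stood at 125 and 66.3 CPM (-0.92), Sc5d at 211 and 63.8 CPM (-1.72), and Dhcr7, the reductase that ends one branch of the chain, at 14.7 and 5.26 CPM (-1.49). All 8 were thus lower in the HFHC pool, 7 of them at least 2-fold. The regulators were lower by less, with Srebf2 at 32.5 and 23.5 CPM (-0.47), Insig1 at 217 and 121 CPM (-0.84) and Stard4 at 214 and 190 CPM (-0.18).

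**Figure D1:**
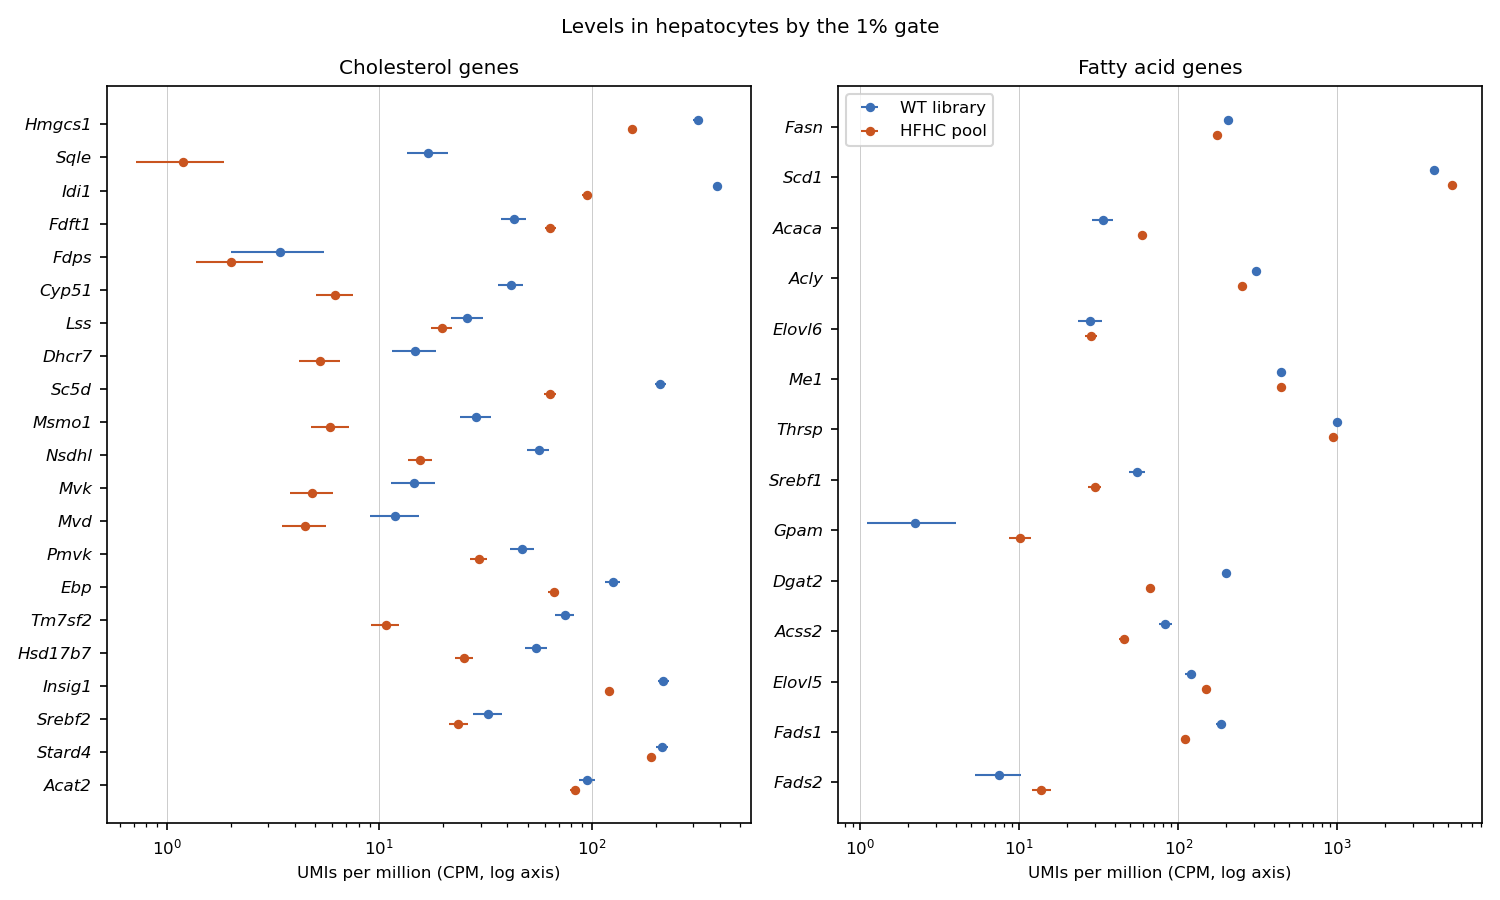
Levels of the 35 genes in hepatocytes of the 1% gate, as CPM on a log axis, in the WT library (blue) and the HFHC pool (orange); points are sums over all cells and lines exact 95% Poisson intervals. Of the 21 cholesterol genes (left), Fdft1 alone lies higher in the HFHC pool, from 43.1 to 63.9 CPM, whereas the 14 fatty acid genes (right) lie on both sides.

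Most enzymes of the cholesterol list, lower or not, are textbook targets of SREBP2, and the DNA before gene starts is shown for that reason. The part of SREBP2 in the differences was not tested. The 250 bases upstream of the RefSeq start (GRCm38.p6) were read for the 28 genes with an entry, 17 of cholesterol and 11 of fatty acid synthesis. Printed are 4 cholesterol genes at least 2-fold lower in the 1% gate, and Fasn, the fatty acid synthase gene with a small difference. They were picked after their values were seen, from genes whose window lies wholly outside the annotated gene. Hmgcs1 is at chr13:119690101-119690350 (plus strand), Mvk at chr5:114444019-114444268 (plus), Nsdhl at chrX:72918271-72918520 (plus), Sc5d at chr9:42264301-42264550 (minus) and Fasn at chr11:120824548-120824797 (minus). All are written 5′ to 3′ along the gene, and capitals mark TCACNCCAC (the sterol regulatory element), CCAAT (the NF-Y box) and GGGCGG (the Sp1 GC box) on either strand.
Hmgcs1: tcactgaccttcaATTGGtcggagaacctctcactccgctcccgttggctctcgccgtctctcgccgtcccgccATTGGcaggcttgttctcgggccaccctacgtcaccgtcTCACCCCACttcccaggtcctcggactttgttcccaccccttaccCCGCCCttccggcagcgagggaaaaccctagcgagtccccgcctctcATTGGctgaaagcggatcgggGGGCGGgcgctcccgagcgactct
Mvk: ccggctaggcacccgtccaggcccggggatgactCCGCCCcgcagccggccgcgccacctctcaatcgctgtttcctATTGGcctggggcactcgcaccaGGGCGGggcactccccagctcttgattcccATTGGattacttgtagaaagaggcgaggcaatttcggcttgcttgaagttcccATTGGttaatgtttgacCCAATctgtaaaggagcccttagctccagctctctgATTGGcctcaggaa
Nsdhl: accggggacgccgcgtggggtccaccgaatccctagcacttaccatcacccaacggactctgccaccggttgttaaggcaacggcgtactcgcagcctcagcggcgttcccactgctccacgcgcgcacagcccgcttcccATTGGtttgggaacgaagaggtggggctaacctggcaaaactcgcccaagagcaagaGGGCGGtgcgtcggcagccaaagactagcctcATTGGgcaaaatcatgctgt
Sc5d: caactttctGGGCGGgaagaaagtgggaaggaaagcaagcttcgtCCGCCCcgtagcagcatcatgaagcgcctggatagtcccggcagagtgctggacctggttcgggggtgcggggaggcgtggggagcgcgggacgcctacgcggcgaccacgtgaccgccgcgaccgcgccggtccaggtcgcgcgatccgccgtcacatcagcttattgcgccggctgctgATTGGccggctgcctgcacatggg
Fasn: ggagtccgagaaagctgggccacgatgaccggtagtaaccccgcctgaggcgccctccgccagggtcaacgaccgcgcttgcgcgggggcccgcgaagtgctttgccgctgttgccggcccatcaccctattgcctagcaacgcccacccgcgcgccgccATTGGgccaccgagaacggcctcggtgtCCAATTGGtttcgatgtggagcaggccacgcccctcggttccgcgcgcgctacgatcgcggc

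The classical sterol element was found in Hmgcs1 alone, 1 of 17 cholesterol genes and 0 of 11 fatty acid genes, and 1.22% of all 27025 genes with an entry hold it. CCAAT was present in 16 of 17 cholesterol genes (94.1%) and 7 of 11 fatty acid genes (63.6%), against 37.5% of all genes. GGGCGG was present in 16 of 17 (94.1%) and 6 of 11 (54.5%), against 35.4% of all genes. The E-box CACGTG, left in lower case in Sc5d, was present in 4 of 17 and 1 of 11, against 6.86% of all genes. Mvk held the most CCAAT boxes of the printed windows, 5, and in Fasn the run CCAATTGG counts for both strands with overlapping letters. A match describes these letters and is not evidence of a site in use, and bases further away were not searched.

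Fatty acid genes did not share the direction of the cholesterol genes in hepatocytes. In the 5% gate 8 of the 14 genes reached 100 UMIs, 4 lower and 4 higher in the HFHC pool, where 59.8% of all genes were higher, with a median of -0.15. At least 2-fold higher were 2 of them, Elovl5 and Scd1, against 5.63% of all genes read. The lobule mix of this gate differed between the libraries. By the zonation markers described below, 25 cells of the WT library and 153 of the HFHC pool were pericentral-marker cells, and 435 and 256 periportal-marker cells. In periportal-marker cells of this gate no member was at least 2-fold higher. UMIs of the 14 genes summed to 8867 CPM in the WT library and 15251 CPM in the HFHC pool, so that the sum and the median differed in sign, and Scd1 made up most of both sums.

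Scd1, stearoyl-CoA desaturase, makes oleate from stearate and was the most abundant member, at chr19:44394455-44407879. It had 3483 UMIs (6346 CPM) in the 5% gate of the WT library and 7416 UMIs (12970 CPM) in that of the HFHC pool, a log2 ratio of 1.03 (0.97 to 1.09). Elovl5, an elongase of polyunsaturated fatty acids, stood at 197 and 432 CPM (1.13, 0.80 to 1.47). Both were higher in the HFHC pool, whereas Acly, Dgat2 and Thrsp were lower. Acly, which splits citrate to acetyl-CoA, stood at 282 and 150 CPM (-0.90, -1.31 to -0.52). Dgat2, which adds the last fatty acid of a triglyceride, stood at 193 and 96.2 CPM (-0.99, -1.503 to -0.522). Thrsp, a lipogenic nuclear protein, stood at 785 and 591 CPM (-0.41, -0.62 to -0.20). For the other 3 genes read the interval included 0, with Fasn at 197 and 149 CPM (-0.40), Me1, a source of NADPH, at 333 and 357 CPM (0.10), and Fads1, a desaturase of polyunsaturated fatty acids, at 259 and 292 CPM (0.17).

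In the 1% gate all 14 fatty acid genes were read, 8 lower and 6 higher, where 56.1% of all genes were higher, with a median of -0.04 and summed levels of 6757 and 7609 CPM. Only Dgat2 was at least 2-fold lower, at 199 and 66.4 CPM (-1.59, -1.71 to -1.46), where 6.40% of all genes were. Gpam, which starts glycerolipid synthesis, was the only gene at least 2-fold higher, where 5.74% of all genes were, and it rests on few molecules, 11 UMIs (2.22 CPM) in the WT library and 162 UMIs (10.1 CPM) in the HFHC pool (2.08, 1.32 to 3.22). Srebf1, the regulator of the list, was lower, at 55.03 and 29.8 CPM (-0.89, -1.10 to -0.66). Acss2, which activates acetate and is also a known SREBP2 target, stood at 82.9 and 45.4 CPM (-0.87), and Fads1 at 185 and 110 CPM (-0.75). Acly, Fasn and Acaca, all on the way from citrate to palmitate, differed in direction. Acly stood at 309 and 253 CPM (-0.29, -0.37 to -0.20), Fasn at 206 and 175 CPM (-0.24, -0.34 to -0.13) and Acaca, acetyl-CoA carboxylase, at 33.5 and 59.1 CPM (0.81). Thrsp stood at 999 and 944 CPM (-0.08). Me1 stood at 445 and 444 CPM, and Elovl6, an elongase that makes stearate, at 28.0 and 28.2 CPM. The desaturases and elongase of the polyunsaturated branch were split, with Fads2 at 7.46 and 13.8 CPM (0.85), Elovl5 at 120 and 149 CPM (0.31) and Fads1 lower. Scd1 stood at 4084 and 5283 CPM (0.37), less apart than in the 5% gate.

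**Figure D2:**
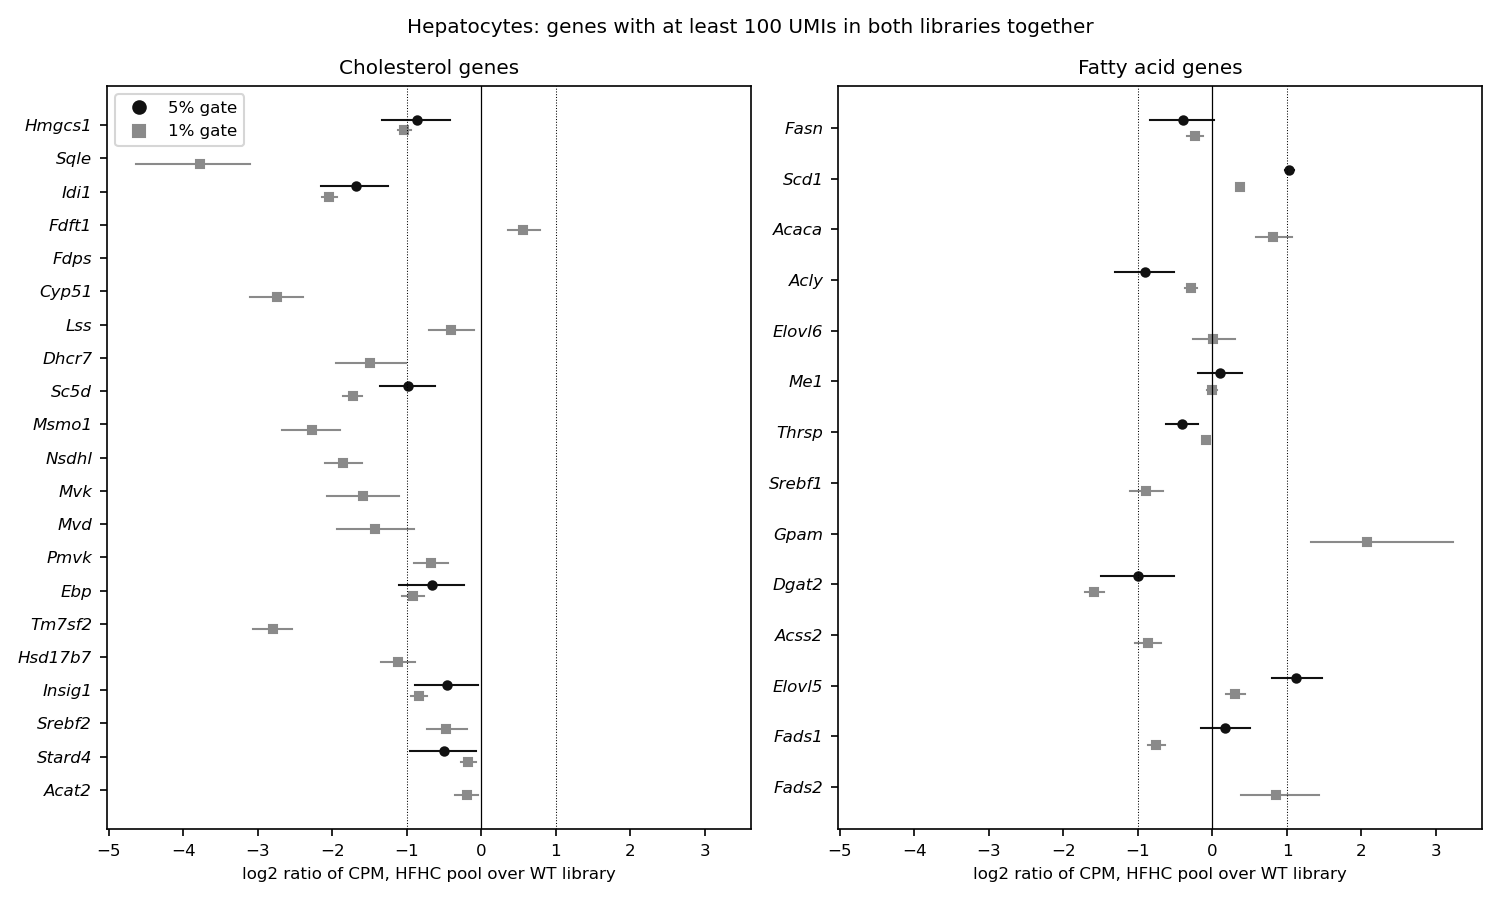
Log2 ratios of CPM, HFHC pool over WT library, in hepatocytes of the 5% gate (black circles) and the 1% gate (grey squares), with exact 95% intervals; dotted lines mark 2-fold, and a gene with no point had under 100 UMIs. The 6 cholesterol genes of the 5% gate all lie below 0, and Scd1 lies at 1.03 in the 5% gate and 0.37 in the 1% gate.

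The level of Scd1 varied with the share of gate genes, whereas the sum of the cholesterol genes varied little. When cells with no Ptprc UMI were split by the share of the 5 gate genes, the cholesterol sum lay between 1955 and 2148 CPM in the 5 bins of the WT library and between 974 and 1090 CPM in those of the HFHC pool. Every bin of the HFHC pool was thus lower than every bin of the WT library. Scd1 stood at 2396 CPM in the lowest bin and 6346 CPM in the highest bin of the WT library, and at 3781 and 12970 CPM in those of the HFHC pool. It was higher in the HFHC pool in each of the 5 bins. Hmgcs1 went the other way, from 341 to 211 CPM between the lowest and the highest bin in the WT library and from 170 to 115 CPM in the HFHC pool, and so did the fatty acid genes without Scd1 in the HFHC pool, from 2577 to 2281 CPM.

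**Figure D3:**
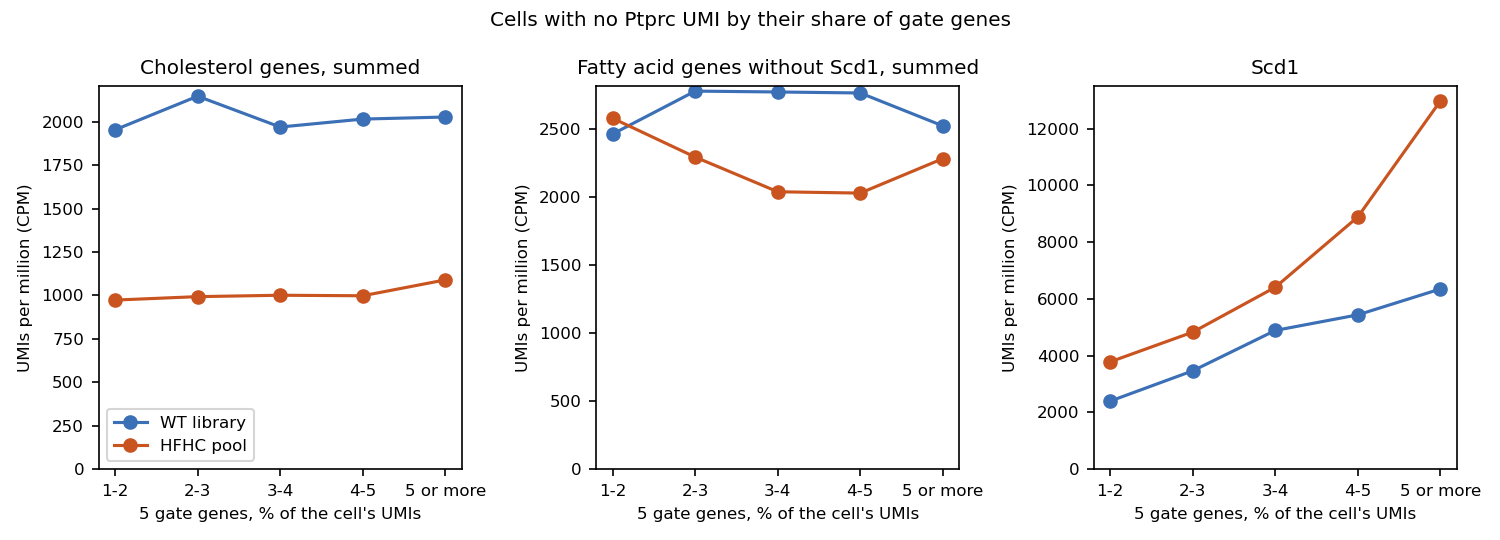
Levels (CPM, axes from 0) of the summed cholesterol genes, the summed fatty acid genes without Scd1, and Scd1, in cells with no Ptprc UMI binned by the share of the 5 gate genes, in the WT library (blue) and the HFHC pool (orange). The cholesterol sums lie between 1955 and 2148 CPM and between 974 and 1090 CPM without overlap, and Scd1 is higher in bins with more of the gate genes in both libraries.

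In hepatocytes the share of single cells with a molecule of these genes gave the same order. In cells thinned to 500 UMIs, Idi1 was found in 17.9% (16.6 to 19.2%) of 3572 cells of the 1% gate in the WT library and 4.44% (4.01 to 4.90%) of 8485 cells in the HFHC pool. The 3041 and 2742 shallower cells were left out, and unthinned cells, which held a median of 533 and 875 UMIs, gave 21.6 and 9.97%. Hmgcs1 was found in 14.0 and 7.30% of the thinned cells, and Insig1 in 9.94 and 5.24%. Without thinning, Insig1 was found in 13.4 and 12.8%. Cells called Kupffer cell (KC)-like, the immune class with the lowest Idi1 level, gave 0.439 and 0.80% for Idi1 at the same thinning, and T-like cells 1.85 and 0.90%. The KC-like shares rest on 11 and 3 cells and run opposite to the levels, whereas unthinned KC-like cells gave 8.38 and 5.33%. Scd1 was found in 72.9 and 80.7% of the thinned hepatocytes.

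Splitting the 1% gate by lobule position left the cholesterol genes lower on both sides. Cells were called pericentral-marker cells where at least 67% of their UMIs of zonation markers were pericentral (1633 and 4089 cells), and periportal-marker cells where at most 33% were (3490 and 4544 cells). A single UMI of these markers was enough, so a call can rest on 1 molecule. In pericentral-marker cells 14 of 15 cholesterol genes read were lower, 9 at least 2-fold, with a median of -1.30, where 48.3% of all genes were lower and 4.65% at least 2-fold. In periportal-marker cells 13 of 15 were lower, 6 at least 2-fold, with a median of -0.77, where 39.5% and 6.74% of all genes were. Cyp51, Tm7sf2, Sc5d and Nsdhl were nearly the same in both, with ratios of -2.90 and -2.93, -2.79 and -2.83, -1.75 and -1.84, and -1.98 and -1.91. Idi1 and Hmgcs1 were further apart between libraries in pericentral-marker cells. Idi1 stood at 505 and 60.5 CPM there (-3.06, -3.27 to -2.86) and at 354 and 114 CPM in periportal-marker cells (-1.64, -1.77 to -1.505). Hmgcs1 stood at 549 and 183 CPM (-1.59, -1.73 to -1.44) and at 237 and 139 CPM (-0.77, -0.91 to -0.63). Ebp went the other way, with -0.55 in pericentral-marker and -1.21 in periportal-marker cells. The difference between positions was not tested, as each rests on 1 library per condition.

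Among the fatty acid genes, 8 of the 12 read in both lobule positions had the same sign in both, and Me1 and Thrsp alone had intervals on opposite sides of 0. The share of all genes that did either was not counted. Scd1 stood at 3617 and 7151 CPM in pericentral-marker cells (0.98, 0.94 to 1.03) and at 4220 and 4201 CPM in periportal-marker cells (-0.01, -0.04 to 0.02). Elovl5 had the same pattern, with 0.98 (0.69 to 1.31) and 0.05 (-0.12 to 0.23). Me1 had ratios of -0.47 in pericentral-marker and 0.20 in periportal-marker cells, and Thrsp of 0.26 and -0.32. Srebf1 stood at 33.1 and 32.9 CPM in pericentral-marker cells and at 66.4 and 30.1 CPM in periportal-marker cells (-1.15, -1.43 to -0.86). Dgat2 was lower in both (-1.86 and -1.499), as was Acss2 (-1.17 and -0.88). The medians were -0.36 over 12 genes and -0.06 over 13. The HFHC pool held more Cyp2e1 and less Cyp2f2, as given above, and the part of this in the ratios over all hepatocytes was not tested.

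**Figure D4:**
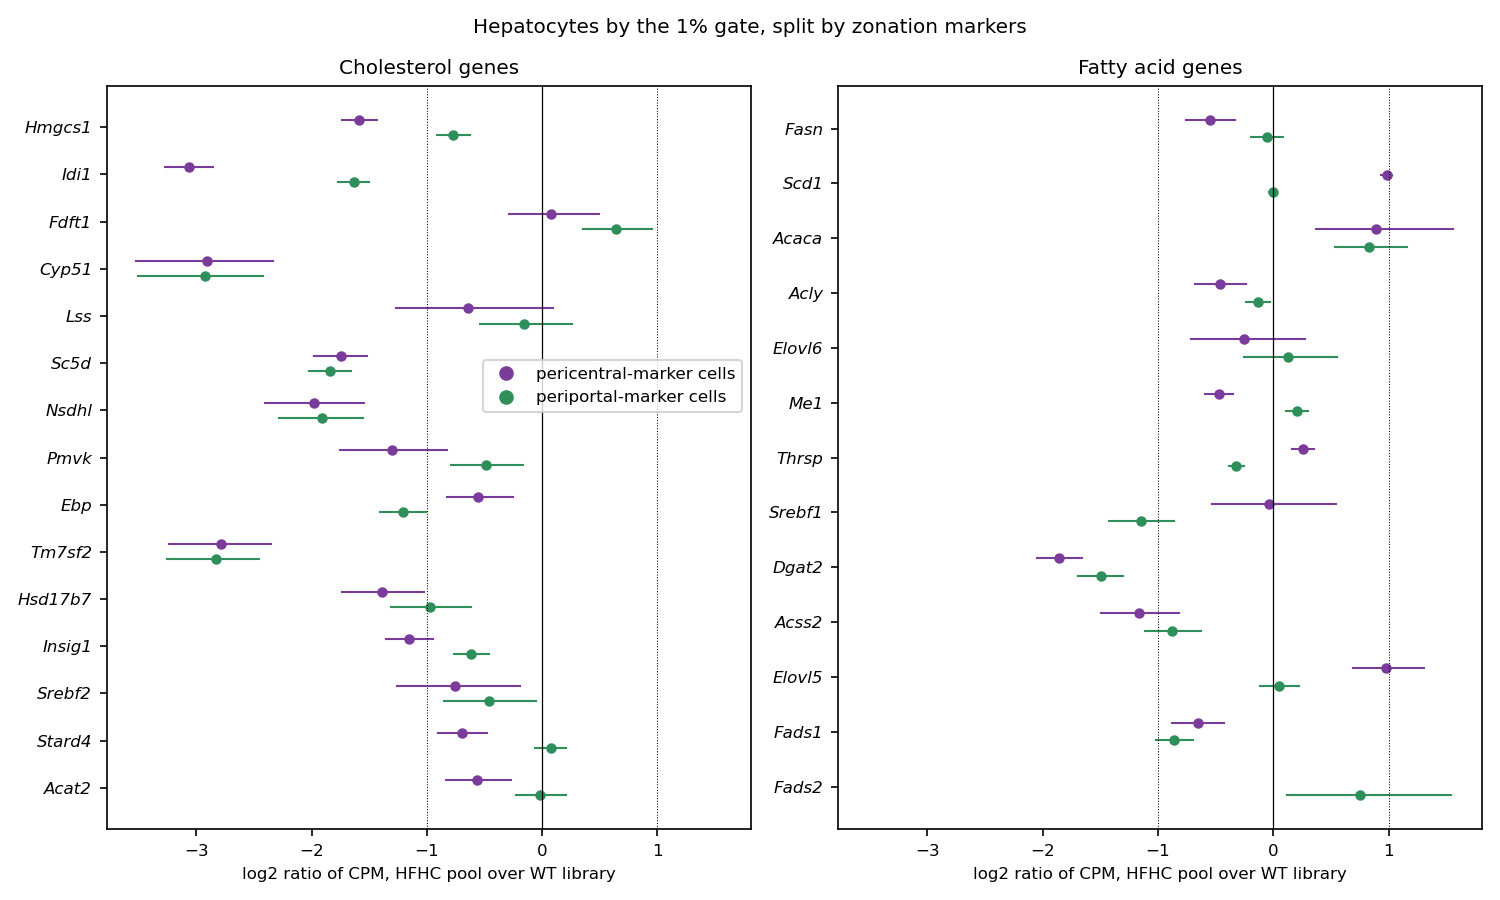
Log2 ratios of CPM, HFHC pool over WT library, in pericentral-marker (purple) and periportal-marker (green) hepatocytes of the 1% gate, with exact 95% intervals; dotted lines mark 2-fold. Cyp51, Tm7sf2, Sc5d and Nsdhl lie together in both, Idi1 lies at -3.06 and -1.64, and Scd1 at 0.98 and -0.01.

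Other genes of the same control circuits were counted from lists beside the 35. Of 9 further genes of cholesterol synthesis, uptake and SREBP control read in the 1% gate, 7 were lower, where 43.9% of all genes were, with a median of -0.75. Among them Scap, the SREBP escort, stood at 19.8 and 7.89 CPM (-1.33). Of 8 LXR genes, 5 were higher and 3 lower, where 56.1% of all genes were higher, with a median of 0.13 against 0.08. The sterol exporters Abcg5 and Abcg8 were at least 2-fold higher, against 5.74% of all genes, at 13.9 and 43.9 CPM (1.64) and at 15.5 and 37.1 CPM (1.24).

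Genes of fat oxidation were all higher in the HFHC pool, 8 of 8 read in the 5% gate (median 1.08) and 13 of 13 in the 1% gate (median 0.92), where 59.8 and 56.1% of all genes were. At least 2-fold higher were 6 of them in each gate, against 5.63 and 5.74% of all genes. Ehhadh, an enzyme of peroxisomal oxidation, stood at 98.6 and 354 CPM in the 1% gate (1.84). Of the further genes of fatty acid and lipid droplet metabolism, 6 of 8 read in the 5% gate were higher (median 0.60), whereas 20 were read in the 1% gate, 10 lower and 10 higher, where 43.9% of all genes were lower. Cidec, a lipid droplet protein, had 5 and 216 UMIs (1.01 and 13.5 CPM, 3.49), whereas Elovl1, an elongase of very long chains, stood at 27.8 and 4.89 CPM (-2.50) and Lpin1, a phosphatidate phosphatase, at 98.0 and 41.7 CPM (-1.23).

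In immune cells as a whole the cholesterol list did not stand apart. Cells with a Ptprc UMI and under 5% of gate genes numbered 11392 in the WT library and 7051 in the HFHC pool. Of these, 11004 and 6183 held under 1% of gate genes, so the rest reached the share used for the wider hepatocyte gate. No class was given by markers to 1696 and 1846 of them. All 21 cholesterol genes were read, 9 lower and 12 higher, with a median of 0.07 against 0.13 over 12379 genes, of which 40.8% were lower. Tm7sf2 alone was at least 2-fold lower (16.8 and 7.12 CPM, -1.23), where 6.10% of all genes were, and Fdft1 alone at least 2-fold higher (14.3 and 29.5 CPM, 1.05), where 9.39% were. Of the fatty acid genes 12 were read, 4 lower and 8 higher, with a median of 0.10. Scd1 stood at 195 and 528 CPM (1.44), Me1 at 12.998 and 34.27 CPM (1.40) and Thrsp at 27.9 and 73.0 CPM (1.39), whereas Dgat2 stood at 23.3 and 9.68 CPM (-1.27).

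These sums mix cell types in different shares and carry RNA of hepatocytes. The median level of 10 hepatocyte markers in immune cells was 3.05% of that in hepatocytes of the 1% gate in the WT library and 7.83% in the HFHC pool. Me1 in immune cells stood at 0.958 and 0.987 times the level that these shares alone would give, and Thrsp at 0.916 and 0.988 times, so neither exceeded it in either library. Their ratios in immune cells are therefore read as background. Scd1 stood at 1.56 and 1.28 times that level, and its interval included the highest of the 10 marker shares in the WT library and lay above it in the HFHC pool. Idi1 stood at 4.35 and 5.38 times that level, Cyp51 at 27.7 and 57.8 times and Fads1 at 8.85 and 3.02 times. All 21 cholesterol genes exceeded even the highest of the 10 marker shares in both libraries.

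In monocytes and monocyte-derived macrophages (MoMF) every cholesterol gene read was lower in the HFHC pool. Classes were set by marker UMIs of each cell and are called X-like. In 751 and 975 monocyte/MoMF-like cells, 18 of the 21 cholesterol genes were read and these 18 were lower, where 50.8% of 8061 genes were, and the median was -0.61 against -0.01. The interval lay below 0 for 14 of them, with no such count over all genes. At least 2-fold lower were 3, against 3.71% of all genes. Idi1 stood at 132 and 59.6 CPM (-1.14, -1.35 to -0.93), Hsd17b7 at 27.3 and 11.9 CPM (-1.20, -1.67 to -0.72), and Tm7sf2 at 21.2 and 6.95 CPM (-1.60, -2.20 to -1.03). Cyp51 followed with 94.6 and 50.9 CPM (-0.90), Msmo1 with 90.6 and 52.9 CPM (-0.78) and Sqle with 50.0 and 29.7 CPM (-0.75). Sqle was thus much less apart than in hepatocytes. Srebf2 (-0.11), Fdft1 (-0.18), Ebp (-0.22) and Mvd (-0.56) had intervals that included 0. Idi1 stood at 14.2 and 21.4 times the carry-over level in these cells, and that level was alike in both libraries, 2.38 and 2.94%.

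Fatty acid genes were lower in part in the same cells. Of 11 read, 8 were lower, 3 of them at least 2-fold, where 50.8 and 3.71% of all genes were, with a median of -0.36 against -0.01. Fasn stood at 38.8 and 17.5 CPM (-1.15, -1.54 to -0.76), Fads1 at 40.3 and 19.3 CPM (-1.06) and Dgat2 at 19.8 and 9.66 CPM (-1.04). The 3 higher genes, Scd1 (92.8 and 181 CPM), Thrsp and Me1, lay at 0.956 and 1.17, 0.651 and 1.101, and 0.749 and 0.986 times the carry-over level and are read as background. All 6 LXR genes read were higher, where 49.2% of all genes were, with a median of 0.74, led by the cholesterol exporter Abca1 at 30.9 and 99.7 CPM (1.67). Plin2, which coats lipid droplets, stood at 55.01 and 139 CPM (1.33).

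Kupffer cell (KC)-like cells, the resident macrophages, numbered 2518 and 375, with medians of 2227 and 3157 genes per cell. The upper limit on genes per cell was passed by 68 cells of the WT library and 814 cells of the HFHC pool. Without this limit immune cells numbered 11451 and 7808, against 11392 and 7051 with it. The part of the limit in the ratios of KC-like, monocyte/MoMF-like and other immune classes was not tested. Of 14 cholesterol genes read in KC-like cells 10 were lower, where 53.3% of all genes were, with a median of -0.19 against -0.03. Idi1 alone was at least 2-fold lower, at 16.9 and 6.11 CPM (-1.41, -2.15 to -0.85), where 4.31% of all genes were, and Dhcr7 was higher, at 16.8 and 23.9 CPM (0.52, 0.14 to 0.86). Idi1 in KC-like cells lay at 2.37 and 3.56 times the carry-over level, below the highest marker share in both libraries. Scd1 stood at 174 and 640 CPM (1.88, 1.80 to 1.96), 2.33 and 6.70 times its carry-over level, which was below the highest marker share in the WT library and above it in the HFHC pool. Its close relative Scd2 stood at 34.4 and 162 CPM (2.24), and reads of the pair can be confused. In cells thinned to 500 UMIs, Scd1 was found in 8.70 and 25.6% of KC-like cells, and in 50.9 and 84.3% of unthinned cells, which held a median of 5527 and 11056 UMIs. Acly (0.32) was slightly higher, Fads1 (72.2 and 45.4 CPM, -0.66) lower, and Fasn and Srebf1 had intervals that included 0. All 6 LXR genes read were higher, where 46.7% of all genes were, with a median of 0.45.

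T-like cells (2173 and 2113) had 14 of 18 cholesterol genes lower, where 45.0% of all genes were, with a median of -0.36 against 0.05. Tm7sf2 (13.2 and 5.32 CPM, -1.29) and Idi1 (47.9 and 22.6 CPM, -1.08) were at least 2-fold lower, against 2.99% of all genes, and Hsd17b7 was higher (0.49, 0.07 to 0.94), unlike in monocyte/MoMF-like cells. Scd1 in T-like cells, at 117 and 272 CPM, lay at 0.977 and 0.942 times the carry-over level. B-like cells (860 and 786) were the immune class with the highest Scd1 in both libraries, at 793 and 945 CPM (0.25), 4.13 and 2.51 times that level, and 5 of 8 cholesterol genes read there were lower, where 52.9% of all genes were, with a median of -0.07. Neutrophil-like cells (2595 and 333) had the highest Dgat2, at 169 and 51.6 CPM (-1.68, -2.21 to -1.26), 15.1 and 6.85 times the carry-over level, and only 5 cholesterol genes reached 100 UMIs, 2 of them lower, where 49.7% of all genes were, with a median of 0.03. DC-like cells (202 and 64) had the highest Srebf2, at 183 and 268 CPM (0.55, 0.25 to 0.84), and 5 of 6 cholesterol genes read were higher, where 55.3% of all genes were, with a median of 0.19. NK-like cells (369 and 438) had 3 cholesterol genes read.

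Endothelial-like cells, which line the liver's vessels and hold no Ptprc UMI here, numbered 2345 and 596. Stard4 was the cholesterol gene with the highest level in them, at 109 CPM in the WT library and 148 CPM in the HFHC pool (0.44, 0.26 to 0.62). Srebf2 stood at 51.3 and 34.5 CPM (-0.56), and Msmo1 at 33.5 and 16.003 CPM (-1.05, -1.54 to -0.61). Of 11 cholesterol genes read, 8 were higher and 3 lower, where 46.3 and 53.7% of all genes were, with a median of 0.32 against -0.06. Msmo1 alone was at least 2-fold lower, against 5.58% of all genes, and Acat2 (1.62) and Fdft1 (1.59) were at least 2-fold higher, against 10.7%. This class overlaps the 1% hepatocyte gate, because its cells needed only under 5% of gate genes. In the 1% gate 82 cells of the WT library and 191 cells of the HFHC pool were called endothelial by markers. Of these, 3 and 1 were in the 5% gate. The carry-over level of hepatocyte markers in endothelial-like cells was 4.23% in the WT library and 28.7% in the HFHC pool. The part of the shared cells in these levels was not tested. Carry-over was not taken off, so the counts, the median and the ratios above hold it in unequal amounts. The direction of the cholesterol genes in endothelial-like cells without it was not tested. Scd1 stood at 196 and 1538 CPM (2.97), which is 1.14 and 1.02 times the carry-over level, and Fasn at 13.8 and 58.4 CPM (2.07), 1.58 and 1.16 times. For neither gene did the interval lie above the highest marker share in either library, and both are read as background. The interval of Acat2, at 1.93 and 1.01 times, lay above that share in the WT library only, and those of Elovl5 (125 and 154 CPM) and Fads1 (96.3 and 104 CPM) in both.

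Levels of single genes across the immune classes kept some order between the libraries. Idi1 was highest in monocyte/MoMF-like cells (132 CPM) and next in DC-like cells (91.7 CPM) in the WT library, and in the reverse order in the HFHC pool (59.6 and 84.1 CPM), with the lowest level in KC-like cells in both. Cyp51 had the same order, with 94.6 and 63.1 CPM in the WT library, 50.9 and 71.6 CPM in the HFHC pool, and the lowest level in neutrophil-like cells. Fads1 was highest in KC-like cells in both, at 72.2 and 45.4 CPM. In DC-like cells the intervals of both ratios included 0 (-0.11 and 0.19), and in monocyte/MoMF-like cells both lay below 0.

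**Figure D5:**
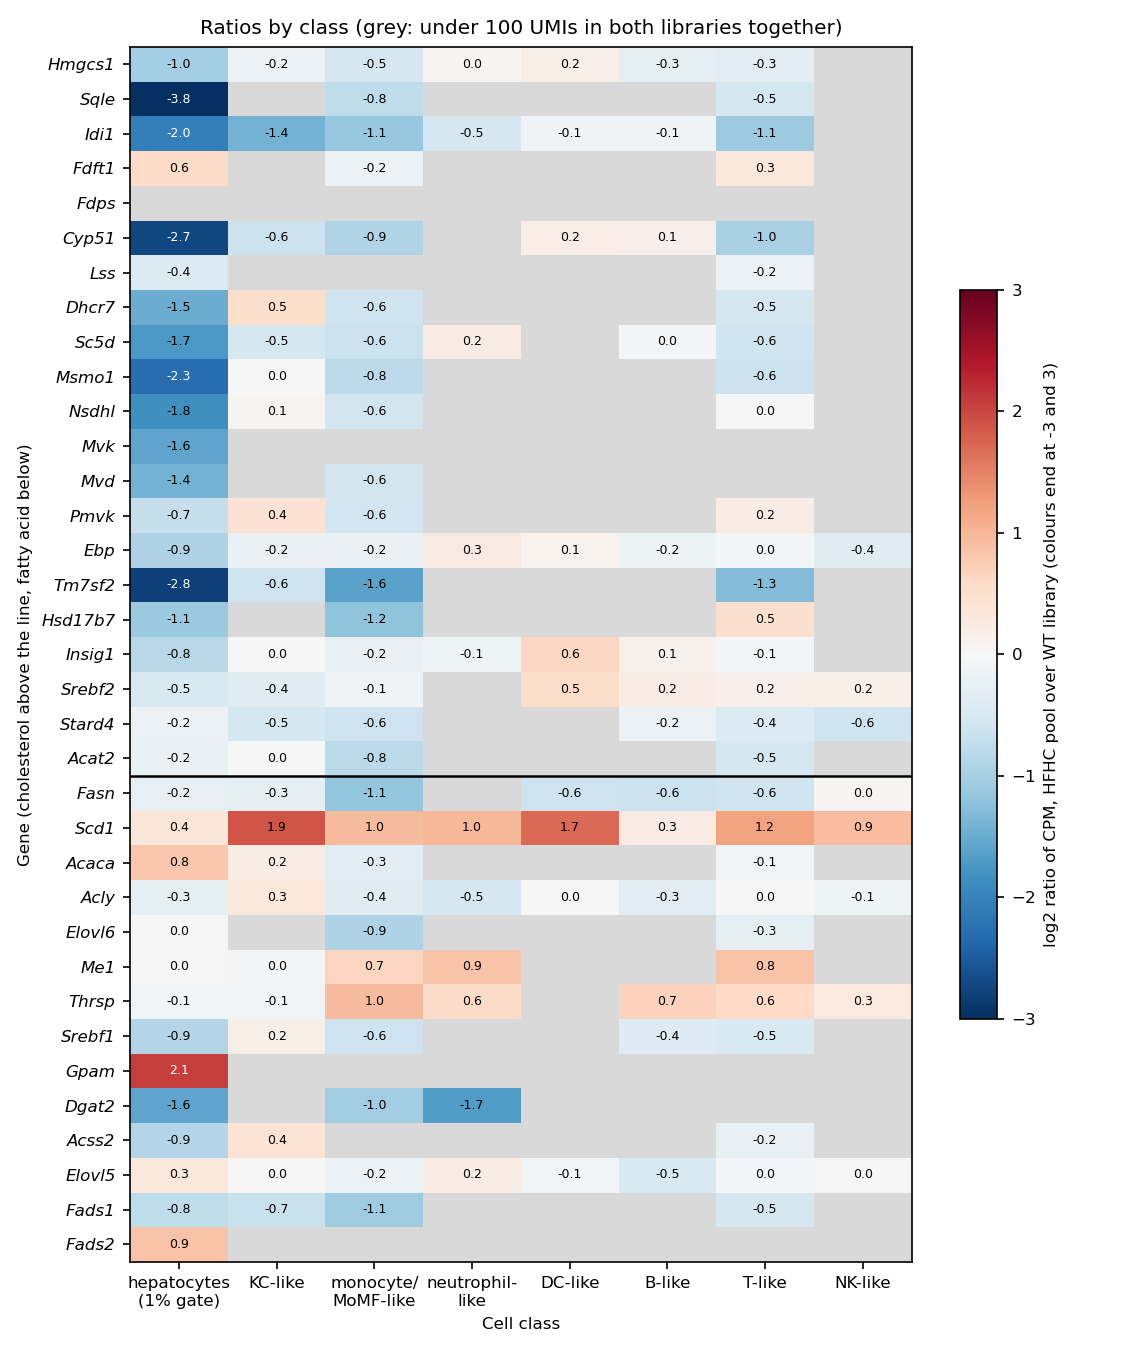
Log2 ratios of CPM, HFHC pool over WT library, of the 35 genes (rows, cholesterol above the line) in hepatocytes of the 1% gate and 7 immune classes (columns), blue for lower and red for higher; grey marks genes under 100 UMIs, and carry-over of hepatocyte RNA is not removed. The column of monocyte/MoMF-like cells is blue for all 18 cholesterol genes read, and Scd1 is red in every class.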

How the data were processed

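The deposited values are error-corrected UMI counts per cell and gene, unfiltered and not normalized, in 2 tables. Per the file headers they come from the BD Rhapsody WTA Analysis Pipeline 1.10.1 on GENCODE vM19 of the mouse build GRCm38. The submitters' notes also name Seurat. The sample-tag library of the HFHC pool was not used here. The aligner settings are not given in the sources used here.

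Cells with 200 to 4000 genes and at most 25% mitochondrial UMIs were kept. Hepatocytes and immune cells were split by Ptprc and the 5 gate genes. Immune and endothelial classes needed at least 3 UMIs of at least 2 of their markers and 2 times the UMIs of the next class. UMIs were summed per class and library and given as CPM. Differences are log2 ratios after adding 1 UMI to each sum, and genes below 100 UMIs over both libraries were not read. Called means at least 2-fold. Intervals are exact Poisson (levels), conditional binomial (ratios) and Clopper-Pearson binomial (shares). For shares, cells were thinned to 500 UMIs. Scrublet called 1897 cells (8.13%) and 382 cells (1.95%) doublets, none of them in the 5% hepatocyte gate, and they were removed only as an alternative. Carry-over is the median ratio of 10 hepatocyte markers to their level in hepatocytes of the same library (1% gate).

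Gene positions come from GENCODE vM21 and promoter windows from RefSeq, both on GRCm38. 7 genes without a promoter entry were not searched: Scd1, Dgat2, Sqle, Fdft1, Stard4, Fads1 and Fdps. Genes named are the 35 members, and genes of the further lists; any other gene was picked with its values known. Some genes of the further lists are not reported here by name. The members and lists were chosen with earlier results of these data known. The ratios and their intervals alone were run on simulated UMIs, drawn from the counting model that the intervals assume. Such a run cannot check that model. The gates, classes, thinning, carry-over and spread between cells or mice were not simulated. Alternatives changed the cell filters, the hepatocyte gate, doublets, depth, lobule position, scaling, the UMI minimum, the weight of cells and classes, and carry-over. The 1% gate, its subsets and the carry-over by 10 markers were added after these data were seen. Python 3.11.15, numpy 2.4.6, pandas 2.3.3, scipy 1.17.1, scanpy 1.11.5 and scikit-image 0.26.0 were used, with matplotlib 3.10.9 for figures.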

Additional observations from a re-analysis of the deposited data

Results flagged for a closer look

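For 3 genes the counting intervals in hepatocytes of the 5% gate and in immune cells lay on opposite sides of 0, which flagged them. Only members were looked at, and the share of all genes that this rule would flag was not counted. The count is therefore not read as a trait of these genes. The difference between the cell groups was not tested, with 1 library per condition. The log2 ratio (HFHC pool over WT library) was -0.863 in hepatocytes and 0.211 in immune cells for Hmgcs1, and -0.502 and 0.287 for Stard4. For Thrsp it was -0.409 and 1.387. These ratios in immune cells have no carried-over hepatocyte RNA taken off, and its share was 3.05% in the WT library and 7.83% in the HFHC pool. In immune cells Thrsp lay at 0.916 and 0.988 times the level that carried-over hepatocyte RNA alone would give. Within the immune classes with 100 or more UMIs of the gene, Stard4 was lower in KC-like (-0.53), monocyte/MoMF-like (-0.61), T-like (-0.41) and NK-like cells (-0.59), and its interval included 0 in B-like cells (-0.17). Hmgcs1 was lower in monocyte/MoMF-like (-0.51) and T-like cells (-0.32), and its interval included 0 in KC-like (-0.17), B-like (-0.29), neutrophil-like (0.03) and DC-like cells (0.18). Thrsp was higher in monocyte/MoMF-like (0.95), neutrophil-like (0.56), B-like (0.69) and T-like cells (0.59), and its interval included 0 in KC-like (-0.08) and NK-like cells (0.30). In no class and neither library did the interval of its level lie above the highest share of carried-over markers.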

How the results depend on the processing

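The cholesterol genes read in hepatocytes kept their direction in 66 of 66 single-gene values under the listed alternatives, and 35 of 36 under those added after these data were seen (the 1% gate and its subsets), where Stard4 in periportal-marker cells was the exception (0.0734). The fatty acid genes kept it in 86 of 90 and 36 of 48 values. In immune cells the cholesterol genes kept it in 179 of 207 and 18 of 21, and the fatty acid genes in 100 of 120 and 8 of 10. The minimum of 20 UMIs could not change the ratio of a gene already read. Nor could doublet removal in the 5% hepatocyte gate, which held none. Genes first read at 20 UMIs are not in these tallies. The median of the cholesterol genes in hepatocytes, -0.76 over 6 genes in the 5% gate, was -1.27 over 20 genes in the 1% gate. It was -1.30 in pericentral-marker and -0.77 in periportal-marker cells of the 1% gate, each over 15 genes. In the 1% gate it was -1.36 with scaling by the median of gene ratios and -1.33 without doublets. These medians thus cover different sets of genes. The median of the fatty acid genes in hepatocytes, -0.15, changed sign with a gate of 10% (0.513, 1 gene), a minimum of 20 UMIs (0.0969) and pericentral-marker cells of the 5% gate (1.05, 1 gene), and Scd1 changed sign in periportal-marker cells of the 1% gate (-0.0065).

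In the 5% gate 14 members were read. At least 2-fold lower was 1 of them and at least 2-fold higher were 2, against 4.85 and 5.63% of all genes. These counts were 3 and 1 without the upper limit on genes, with a mitochondrial limit of 10%, with no filter and with CPM without mitochondrial and gate genes, 2 and 1 in cells with fewer than 2 UMIs of other markers, 4 and 1 with scaling by gene ratios, 5 and 1 with each cell counted equally, 0 and 0 with a gate of 10%, 0 and 1 in pericentral-marker and 2 and 0 in periportal-marker cells. A minimum of 20 UMIs gave 8 and 3, with 16 cholesterol and 13 fatty acid genes read. In the 1% gate the counts were 13 and 1 of 34 members read, against 6.40 and 5.74% of all genes. They were the same without doublets, 14 and 1 with scaling by gene ratios, and 11 and 1 in cells of at least 1000 UMIs. They were 11 and 0 of 27 in pericentral-marker and 8 and 0 of 28 in periportal-marker cells. For most of the other settings the share of all genes past 2-fold was not counted. The smaller cell and gene numbers of the narrow gates limit these counts, and the cause of the other shifts was not tested.

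In immune cells both medians were near 0 and changed sign under several alternatives. The cholesterol median, 0.07, was -0.0786 without the upper limit on genes, -0.0727 with no filter, -0.0553 with scaling by gene ratios and -0.175 with the same weight for each class. The fatty acid median, 0.10, was -0.0228 with scaling by gene ratios, -0.0969 with the same weight for each class and -0.178 with carry-over taken off by 10 markers. A gate of 20% left no cells, and no cholesterol gene could be read with a gate of 10% or in pericentral-marker cells of the 5% gate. No paired analysis was possible because each condition has 1 library.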
